A study of Mus musculus with 6 samples.

Results

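The comparison described here sets retinal ganglion cells (RGCs) of mouse embryos at embryonic day 18 (E18) against RGCs of adult mice given a mimic of 1 microRNA, miR-1247-5p, from a viral vector. RGCs are the projection neurons of the retina, and their axons make up the optic nerve. The question addressed was which parts of the embryonic expression program the treated adult cells still lacked. All genes of the deposited table whose FPKM averaged 1 or more over its 6 libraries were taken, with the entries of 1 gene name at different loci added up. FPKM is a number of sequenced fragments per length of transcript, scaled to the mapped total of its library. This gave 9981 genes, all of which entered the contrast of 4 of the 6 libraries. No gene was picked by its difference between these groups, but a gene at or near 0 in the adult libraries could pass only through its level in E18.

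The mice were of strain C57/6NCrl and wild type in every group. The 2 adult miR-1247 libraries came from adult RGCs transduced with an AAV2 vector that carried mCherry and the miR-1247-5p mimic. The 2 adult control libraries came from adult RGCs with an AAV2 vector that carried mCherry and a scramble shRNA mimic. The 2 E18 libraries came from untreated RGCs. All cells were purified on Thy1 antibody. Each adult condition pooled 10 retinas, and about 5000 cells were then sorted for mCherry, while about 50000 E18 cells were not sorted. RNA had an integrity number of at least 9 and was sequenced after poly-A selection as paired reads of 100 bases. Age, vector, sort and number of cells cannot be told apart between E18 and the adult groups. Nothing in the labels says that the 2 libraries of a group were made from different animals. The p-values set the difference of group means against the spread between libraries of a group. That spread was pooled over the 3 groups and moderated over genes, and it may be technical. In RNA of many cells together, fewer cells of a type and less RNA per cell cannot be told apart.

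Summed FPKM over the table, with each locus taken once, was between 339224 and 392238 in the 6 libraries, and the depth of each library is unknown because counts are not part of the table. Over the 9981 genes, log2(FPKM + 1) correlated at r = 0.980 to 0.985 between the 2 libraries of a group and at 0.700 to 0.701 between adult miR-1247 and E18 libraries. Genes are not independent replicates, so these r values are descriptive. Xist, the RNA that silences the second X chromosome of female cells, stood at 42.6 and 37.9 FPKM in E18, 0 and 0 FPKM in adult miR-1247 and 3.50 and 2.63 FPKM in adult control libraries. Ddx3y, a Y-linked helicase gene named after its values were seen, stood at 4.67 and 5.18, 12.9 and 11.1 and 13.6 and 15.6 FPKM in the same order, so RNA of male cells was present in every library. The share of male and female animals in each pool is not in the labels, and its part in the results was not tested.

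RGCs are born early in retinal development. By E18 their axons have left the eye, while their dendrites and synapses are still immature. A growing axon depends on the growth cone, a motile tip in which dynamic microtubules and actin are assembled and guidance receptors read cues in the tissue. Mature RGCs lose most of this growth capacity and instead carry the channels, pumps, receptors and release machinery of a firing neuron. A microRNA loads into Argonaute and lowers messenger RNAs whose 3′ untranslated region (UTR) pairs with its seed, bases 2 to 8 of the mature sequence.

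The mature mouse sequence is shown because it is the agent in the treated cells. RefSeq (GRCm38.p6) places it on the minus strand at chr12:110278094-110278115, and its seed is in capitals. It was the 1 mature mouse miRNA in the RefSeq table with that seed.
miR-1247-5p: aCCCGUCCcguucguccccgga

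The DNA letters that pair with the whole seed are GGACGGG. They occurred in the annotated 3′ UTR of 317 of the 9615 tested genes that have one (3.3%, GENCODE vM39, GRCm39). Between treated and control adult cells, 33 of 609 lower genes (5.42%) and 6 of 328 higher genes (1.83%) had a match. Their median 3′ UTR lengths were 1708 and 1064 bases. In the growth cone list 1 of 40 genes (2.5%) had a match. So did 3 of the 15 genes with the largest E18 excess described below, Cd24a, Mex3a and Rpl34. Windows of 30 bases around this match, in capitals, are shown for 4 genes described below. They lie at chr10:43459086-43459115 (plus strand, Cd24a), chr1:62856606-62856635 (plus strand, Nrp2), chr3:88445569-88445598 (plus strand, Mex3a) and chr12:27389919-27389948 (minus strand, Sox11).
Cd24a: tgtagagataaGGACGGGgtgcggaatgga
Nrp2: agggggagggtGGACGGGactggctgtggt
Mex3a: gagatgtgtctGGACGGGctcccctccccc
Sox11: ctgtgatgtgtGGACGGGgccccagacaga
A match is a run of letters, not a shown site of repression. Cd24a and Nrp2 were lower in adult miR-1247 than in adult control RGCs, with log2 differences of -0.999 ± 0.10 (limma adjusted p = 0.00591) and -0.65 ± 0.14 (limma adjusted p = 0.0383). Without 1 library the adjusted p reached 0.0518 for Cd24a, when adult miR-1247 replicate 1 was left out, and 0.139 for Nrp2, whose call was lost without any 1 of the 6. For Mex3a and Sox11 the differences were 0.061 ± 0.16 and 0.069 ± 0.14, neither of which passed the test. All 4 genes were higher in E18 than in the treated adult cells.

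Treated adult RGCs stood far from E18 RGCs. Embryonic cells carried more RNA for the growth cone, for RGC transcription factors, for ribosomes and translation, for splicing, for chromatin proteins and for cholesterol synthesis. Treated adult cells carried more RNA for synaptic release, potassium and sodium channels, ion pumps and glycolysis. Differences are given throughout as E18 minus adult miR-1247 of mean log2(FPKM + 1), so a positive value means higher in E18, with the standard error of the fit and n = 2 libraries a group. This scale understates the change of weakly expressed genes. A gene is called where limma's adjusted p (Benjamini-Hochberg, over all 9981 genes) is under 0.05.

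Of the 9981 genes, 4149 (41.6%) were higher in E18 and 2828 (28.3%) were lower, 6977 (69.9%) in all. At least a 2-fold difference went with 2114 (21.2%) of the higher and 1404 (14.1%) of the lower calls. The median difference of all genes was 0.19, so a list is read against that value. Another scaling moves this median and the split of calls: with libraries scaled by their median ratio, 3420 genes were higher and 3424 lower, and the median was 0.013. Under quantile scaling the counts were 3522 and 3362, and with mitochondrial genes left out of the scaling 3511 and 3347. The contrast of treated with control adult cells, by the same call, gave 352 higher genes (3.53%) and 628 lower genes (6.29%), 980 (9.82%) in all. That contrast shares the miR-1247 libraries with the E18 contrast, and a gene's value in it is also the amount by which its distance to E18 is shorter or longer in treated than in control cells. Calls of that contrast are less stable: its total of 980 calls fell to between 118 and 238 when any 1 of the 6 libraries was left out, and of its 187 calls for genes that the naming rule covers 28 held without each library in turn. Of the 410 named calls of the E18 contrast, 373 held in the same way. Of 100 genes given a log2 change of 1 in simulated data, 96 were called in the right direction. That simulation changed few of the 9981 genes and gave genes of like level the same spread. It therefore does not match the setting of the E18 contrast.

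**Figure D1:**
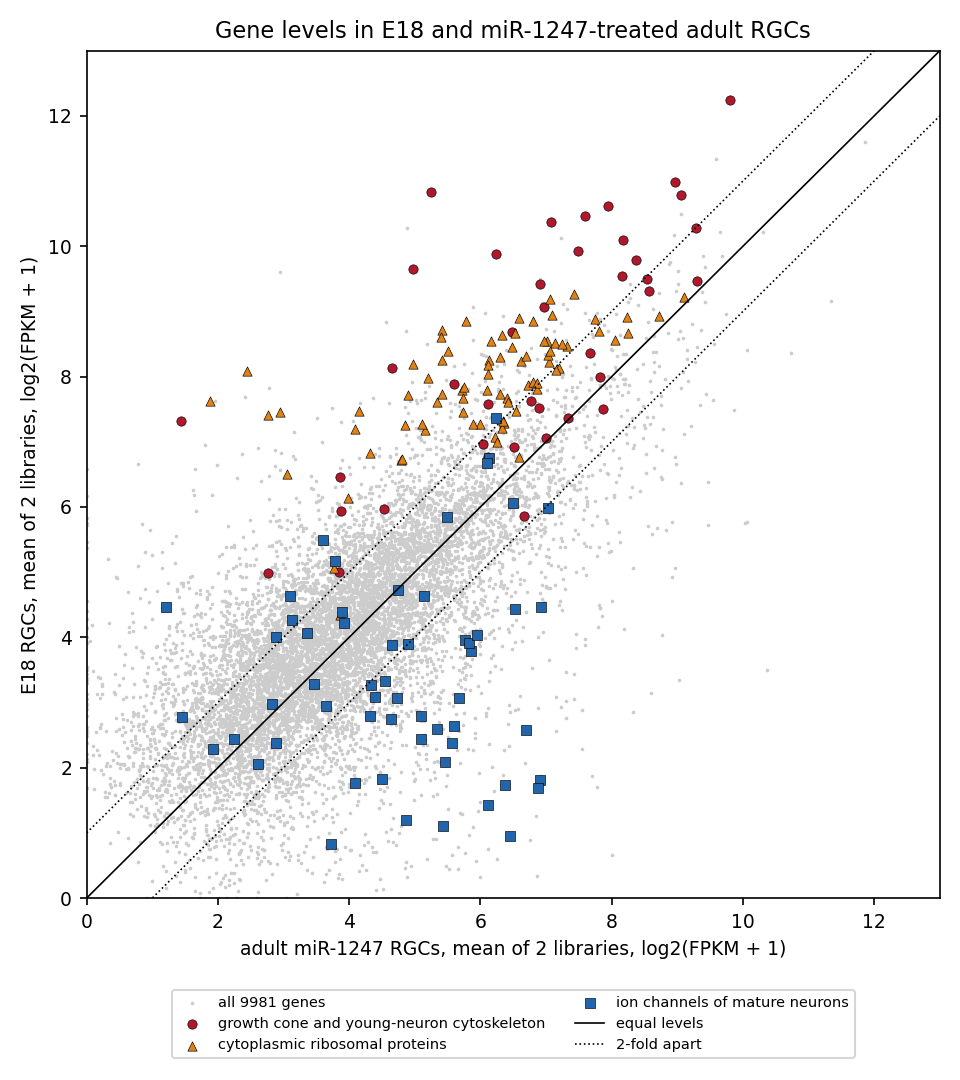
Mean log2(FPKM + 1) of each of the 9981 genes, in grey. The x axis shows the 2 adult miR-1247 libraries and the y axis the 2 E18 libraries. Colours mark the members of the growth cone, ribosomal protein and ion channel lists, and lines mark equal levels and 2-fold differences. The genes called higher (4149) or lower (2828) in E18 are not marked.

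The 15 genes with the largest E18 excess among called genes above 0 in every library were Cd24a, Dcx, Tes, Rpl29, Gpc2, Rpl34, Tubb2b, Nnat, Kctd12, Ddah2, Fblim1, Igfbpl1, Draxin, Dpysl3 and Mex3a. Of these, Gpc2, Nnat and Draxin share coordinates with another locus, so the division of reads and the size of their differences are uncertain. Cd24a encodes a small glycoprotein anchored in the membrane of young neurons and lies at chr10:43454280-43460264 (GRCm39). It stood at 780.3 and 782 FPKM in the E18 libraries, at 6.61 and 6.88 FPKM in the adult miR-1247 libraries and at 12.99 and 16.1 FPKM in the adult control libraries. The 2 E18 libraries were thus the only ones with a high level, and the treated libraries were the lowest of the 6. The difference was 6.66 ± 0.10 (limma adjusted p = 7.19e-08), a ratio of mean FPKM of 116. Nnat, an imprinted gene for a small membrane protein of developing neurons, stood at 1237 and 1244 FPKM in E18 and 29.7 and 27.4 FPKM in treated adult RGCs. Its difference was 5.39 ± 0.073 (limma adjusted p = 5.22e-08). Mex3a, an RNA-binding ubiquitin ligase, stood at 49.6 and 48.2 against 1.09 and 0.839 FPKM. These genes were picked by the size of this difference, so the lack of overlap between their groups is no further result.

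**Figure D2:**
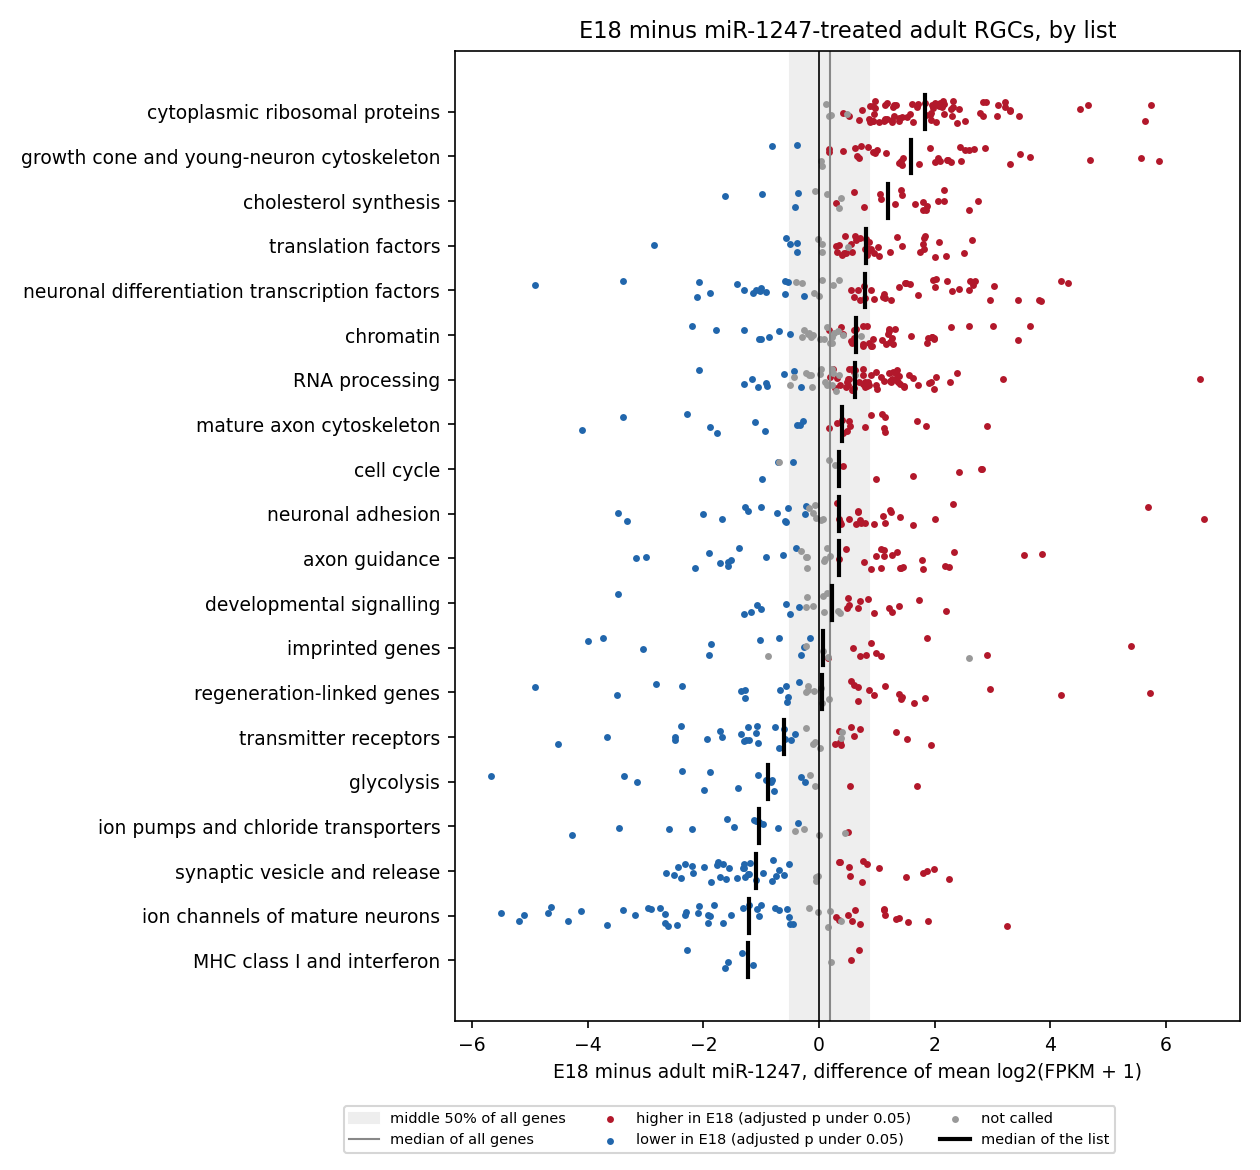
Difference between E18 and adult miR-1247 RGCs (x axis, log2 of FPKM + 1) for every tested member of the 20 gene lists (rows), with coloured points for called genes, the median of each list and the middle 50% and median (0.19) of all genes. The ribosomal protein and growth cone points lie almost wholly to the right of 0, and the points of glycolysis, pumps and channels mostly to the left.

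The embryonic growth cone program was among the parts that the treated adult cells did not share. Of 43 listed genes of the growth cone and young-neuron cytoskeleton, 40 were tested. In E18 36 were higher, 2 were lower and 2 were not called, beside 41.6% higher and 28.3% lower of all genes. The median difference of the 40 was 1.59, against 0.19 for all genes. Their FPKM added up to 28242 and 28040.0 in the E18 libraries, 7814 and 7712 in the adult miR-1247 libraries and 8320.3 and 8225 in the adult control libraries. The treated and control sums thus lie close together and far under those of E18.

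Among membrane proteins of the growth cone, Gap43, a classic growth-associated phosphoprotein, stood at 1318 and 1335 FPKM in E18 and 141 and 127 FPKM in treated adult RGCs. The adult control libraries were at 141 and 155 FPKM, so both adult groups were low, and the E18 excess over treated cells was 3.30 ± 0.069 (limma adjusted p = 1.84e-07). Marcksl1, an actin-binding substrate of protein kinase C, was higher in E18 by 2.52 ± 0.054. Its relative Marcks was 1 of the 2 listed genes lower in E18, at -0.38 ± 0.065, and the other was Dpysl2, at -0.81 ± 0.071. Basp1, another growth cone protein of high level, stood at 707 and 701 FPKM in E18 and 639.8 and 614 FPKM in treated cells. Its difference of 0.17 turned to -0.028, -0.15 and -0.0005 under 3 of the other scalings.

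All 4 stathmins, proteins that bind tubulin and make microtubules turn over, were higher in E18. Stmn1 stood at 2006 and 2034 FPKM in E18 against 502 and 499 FPKM, a difference of 2.01 ± 0.03. Stmn2, which marks growing axons, differed by 2.45 ± 0.041. It was in addition lower in treated than in control adult cells, by a log2 difference of -0.30 ± 0.041 (limma adjusted p = 0.0129, and up to 0.0793 without 1 library), so its distance to E18 was longer with the mimic. Stmn3, at 0.73 ± 0.034 from E18, showed the same order, with -0.34 between treated and control cells.

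Dcx, the doublecortin that stabilizes microtubules of migrating and extending neurons, was near absent in adult cells. It stood at 159 and 159.5 FPKM in E18, 1.60 and 1.84 FPKM in treated and 2.04 and 1.93 FPKM in control adult RGCs, and its difference was 5.88 ± 0.12 (limma adjusted p = 1.71e-07). The collapsin response mediators, which link semaphorin signals to the cytoskeleton, divided: Crmp1 (3.64), Dpysl3 (4.68), Dpysl4 (0.65) and Dpysl5 (3.48) were higher in E18, while Dpysl2 was lower. Dpysl3 stood at 798 and 814 FPKM in E18 and 29.6 and 31.4 FPKM in treated cells. Dpysl2 stood at 54.4 and 59.5 FPKM against 100.2 and 101 FPKM, so this member was the abundant one in the adult.

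Every tested tubulin of the list was higher in E18. Tubb2b, a beta-tubulin of developing neurons, stood at 1819 and 1812 FPKM in E18, 34.1 and 40.4 FPKM in treated and 33.6 and 35.7 FPKM in control adult RGCs. This was a difference of 5.57 ± 0.083 (limma adjusted p = 6.64e-08). Tubb3, the neuron-specific beta-tubulin, stood at 1412 and 1404 against 187 and 195 FPKM, with 276 and 272 FPKM in adult control cells. It was therefore lowest in the treated libraries, by -0.52 ± 0.039 against control (limma adjusted p = 0.00226). Near-identical tubulin genes can share reads, and Tuba1a and Tuba1b are 1 joint entry in the table (2.45).

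Of the 8 microtubule-associated proteins, 7 were higher in E18, led by the kinesin Kif21b (2.60) and tau, Mapt (2.09). Fez1, an adaptor of kinesin transport, was level, with a 95% interval of -0.076 to 0.19 around 0.058. Of 11 actin genes and regulators 10 were higher in E18, and Pfn1, an actin monomer carrier at 0.035, was not called. The largest of these differences were those of Evl (2.29) and Vasp (2.22), which elongate actin filaments at the leading edge, and Enah (2.05). Between treated and control adult cells 5 of the 40 tested growth cone genes were higher and 10 lower, beside 3.53% and 6.29% of all genes. Of these calls 3 (Marcksl1, Stmn3 and Tubb3) held without each library in turn.

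Transcription factors that specify RGCs were higher in E18, and many of them were lowest in the treated cells. Of 24 listed RGC determination factors 17 were tested, with a median of 1.97. Of these 14 were higher in E18, 1 was lower and 2 were not called, beside 41.6% higher and 28.3% lower of all genes. In the contrast of treated with control adult cells, 10 of the same 17 were lower and 0 higher, beside 6.29% and 3.53% of all genes, with a median of -0.67. The calls of Pou4f1, Pou4f2, Isl2, Ebf1 and Ebf3, 5 of the 10, held without each library in turn. For these genes the treated libraries were thus farther from E18 than the control libraries were. Treated cells were also lower than control cells in 21 of the 22 RGC markers described below, some of them the same genes. The part of the cell mixture in these differences, and in those to E18, was not tested.

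Isl2, a LIM homeodomain factor of RGCs, stood at 118 and 121 FPKM in E18, 4.70 and 5.52 FPKM in treated and 15.8 and 13.5 FPKM in control adult RGCs. The 3 groups did not overlap. The difference to E18 was 4.30 ± 0.12 (limma adjusted p = 4.99e-07), and that between treated and control cells was -1.35 ± 0.12 (limma adjusted p = 0.00343). Isl1, its relative, stood at 163 and 164 FPKM in E18 and 9.22 and 11.8 FPKM in treated cells, a difference of 3.85 ± 0.14. The POU factors of RGC differentiation and survival followed the same order. Pou4f1 (Brn3a) stood at 213 and 218 FPKM in E18, 34.9 and 34.4 FPKM in treated and 60.6 and 61.7 FPKM in control cells. Pou4f2 (Brn3b) differed from E18 by 1.97 ± 0.076 and Pou4f3 by 2.01 ± 0.13. Treated cells were lower than control cells by log2 differences of -0.80, -0.89 and -0.78 for the 3 genes.

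Ebf1 (2.21) and Ebf3 (2.69), helix-loop-helix factors downstream of Pou4f2 in RGC development, and the Iroquois factors Irx2 (3.03) and Irx4 (2.42) were also higher in E18. Eomes (Tbr2), which marks the melanopsin-bearing RGCs, was the 1 determination factor lower in E18. It stood at 2.26 and 2.60 FPKM in E18, 14.6 and 13.1 FPKM in treated and 20.2 and 26.7 FPKM in control adult RGCs. Onecut1 (0.34) and Irx3 (0.24) were not called against E18.

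**Figure D3:**
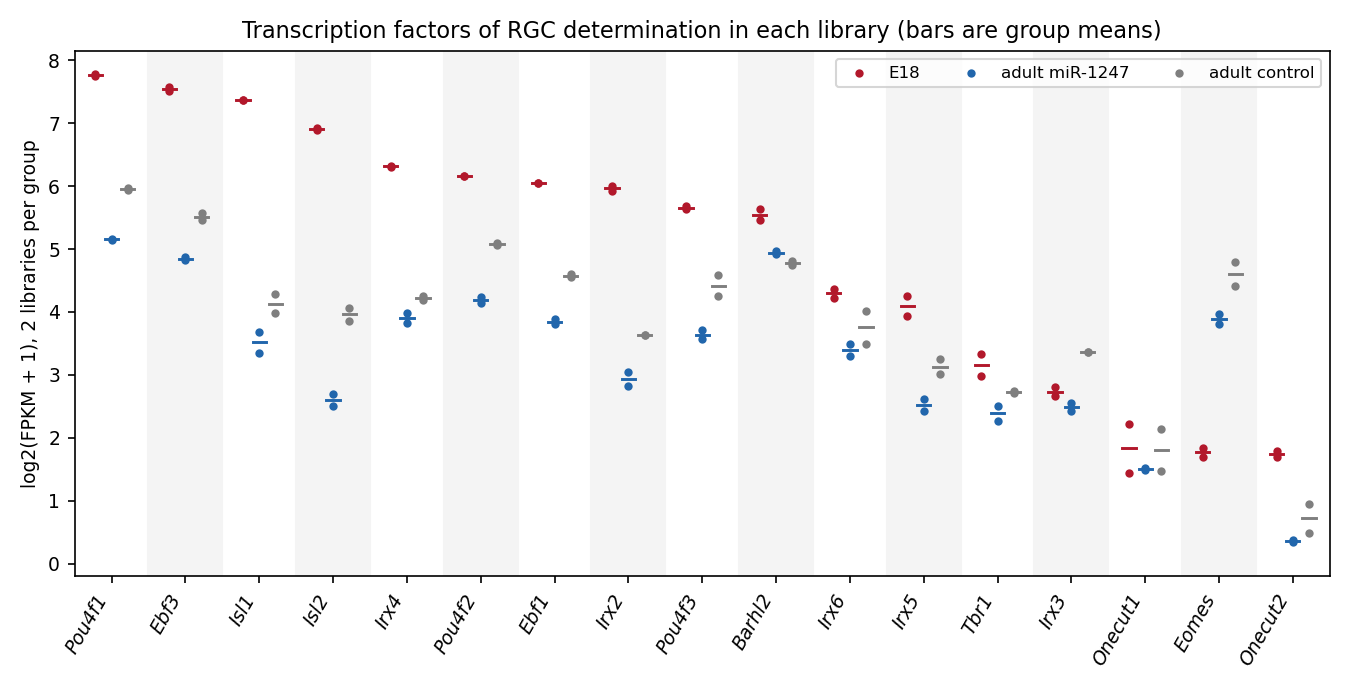
Log2(FPKM + 1) (y axis) of the 17 tested RGC determination factors in each of the 6 libraries, with a separate colour for E18, adult miR-1247 and adult control libraries. For most factors the E18 points lie highest and the adult miR-1247 points lowest, as for Isl2 at 118 and 121 against 4.70 and 5.52 FPKM, while Eomes lies lowest in E18.

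Beyond the RGC determination factors, differentiation factors went both ways. Over the whole list of 76 transcription factors 57 were tested, 34 were higher in E18 and 16 were lower, with a median of 0.79. Among all genes 41.6% were higher and 28.3% lower. The SoxC factors, which act in young neurons after the last division, were all higher in E18. Sox11 stood at 45.2 and 46.6 FPKM in E18, 1.70 and 1.47 FPKM in treated and 1.52 and 1.396 FPKM in control adult RGCs, a difference of 4.18 ± 0.14 (limma adjusted p = 1.31e-06). Sox4 differed by 3.43 ± 0.10 and Sox12 by 2.66 ± 0.16. The adult groups were alike in level for Sox11, and E18 stood apart from both.

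Zic1, a zinc finger factor of neural development, was higher in E18 by 3.80 ± 0.19 and Klf7, a factor linked to axon growth, by 2.95 ± 0.12. Klf9, which restrains neurite growth, went the other way and stood at 0.703 and 0.468 FPKM in E18, 45.4 and 47.4 FPKM in treated and 51.6 and 55.0 FPKM in control cells. Its difference was -4.90 ± 0.12 (limma adjusted p = 3.37e-07). Meis2, a homeodomain cofactor, was lower in E18 by a log2 difference of -3.38 ± 0.078 and Nhlh2 by -2.08 ± 0.11. Pax6, the eye field factor that amacrine cells also express, was level against E18, with a 95% interval of -0.07 to 0.17, and higher in treated than in control cells by 0.42 (adjusted p up to 0.0642 without 1 library).

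Axon guidance genes showed a receptor-by-receptor pattern and not a common shift. Of 57 listed genes 41 were tested, 21 were higher in E18 and 12 lower, with a median of 0.34 against 0.19 for all genes. Among the 22 receptors 13 were higher and 6 lower. Among the 19 ligands the counts were 8 and 6. The shares of all genes were 41.6% and 28.3%.

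Semaphorin receptors had the largest E18 excess among the receptors. Plxnb1, a plexin, stood at 26.1 and 25.6 FPKM in E18 and 1.37 and 0.456 FPKM in treated cells, a difference of 3.85 ± 0.26. Plxna3 differed by 3.55 ± 0.17. Nrp1, the neuropilin that holds semaphorin 3A and VEGF, stood at 24.0 and 27.6 FPKM in E18, 4.64 and 4.04 FPKM in treated and 6.599 and 7.78 FPKM in control cells. The E18 difference was 2.33 ± 0.15, and the treated cells were lower than control cells by a log2 difference of -0.61 ± 0.15 (limma adjusted p = 0.0485, and up to 0.175 without 1 library). Nrp2, whose seed match is printed above, stood at 14.0 and 12.2, 4.39 and 4.63 and 7.96 and 7.29 FPKM in the same order. For both neuropilins the treated libraries were therefore the lowest.

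Robo2, the Slit receptor of RGC axons, was higher in E18 by 1.43 ± 0.066, and its relative Robo1 was lower by a log2 difference of -1.53 ± 0.15. The netrin receptors also divided: Dcc, which mediates attraction, was higher in E18 (0.89), while the repulsive receptors Unc5a (-2.99), Unc5c (-0.91) and Unc5d (-3.16) were lower. Unc5d stood at 0.788 and 0.650 FPKM in E18 against 14.5 and 14.3 FPKM in treated cells. Among ligands, Slit2 was lower in E18 (-2.15), Sema6b was lower (-1.91) and Sema6c was higher (2.25). Efnb3, a transmembrane ephrin, was level against E18 (95% interval -0.054 to 0.34) and higher in treated than in control cells by 0.72 ± 0.082 (limma adjusted p = 0.00793, and up to 0.0582 without 1 library).

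Adhesion molecules likewise divided, with 22 of 41 tested higher in E18 and 13 lower, of 45 listed (median 0.34). The shares of all genes were again 41.6% and 28.3%. After Cd24a, the largest excess was that of Gpc2, a heparan sulfate proteoglycan of developing axons, whose entry shares coordinates with another locus. It stood at 203 and 192 FPKM in E18, 3.05 and 2.70 FPKM in treated and 1.89 and 3.15 FPKM in control adult RGCs, a difference of 5.68 ± 0.18 (limma adjusted p = 1.01e-06). The L1 family, immunoglobulin proteins that carry axons along each other, was higher in E18 in all 4 tested members: Chl1 (2.31), L1cam (2.01), Nfasc (1.22) and Nrcam (1.10). L1cam (-0.41) and Nfasc (-0.59) were in addition lower in treated than in control cells, though both calls were lost without 1 library (adjusted p up to 0.0642 and 0.0672). On the adult side stood the neurexins Nrxn3 (-3.47) and Nrxn2 (-2.002), presynaptic organizers, and Igsf8 (-3.32).

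Genes of the protein-making machinery were higher in E18 with few exceptions. All 79 listed cytoplasmic ribosomal protein genes were tested, 75 were higher in E18, 0 were lower and 4 were not called. Their median difference was 1.84, against 0.19 for all genes, of which 41.6% were higher and 28.3% lower. Summed FPKM of the list was 21358 and 21944 in E18, 7436 and 7528 in treated and 6727 and 6808 in control adult libraries. In the contrast of treated with control cells 11 were higher and 3 lower, at a median of 0.16, beside 3.53% and 6.29% of all genes. Of these 14 calls that of Fau held without each library in turn.

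Rpl29 stood at 212 and 184 FPKM in E18, 3.27 and 2.18 FPKM in treated and 2.57 and 2.57 FPKM in control adult RGCs, a difference of 5.75 ± 0.17. Rpl34 stood at 271 and 268 against 3.95 and 4.93 FPKM, a difference of 5.64 ± 0.56. These sizes are far above the median of the list. Ribosomal protein genes have many near-identical processed copies that can take up reads, so the size of a single member is uncertain. At the other end Rplp1 (0.12), Rps2 (0.18), Rps29 (0.21) and Rpl21 (0.48) were not called. Rps24, the most abundant member in E18, stood at 552 and 681 FPKM there and at 163 and 178 FPKM in treated cells.

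Transcripts of ribosomal proteins begin with a pyrimidine tract that places them under growth-dependent translational control, and part of that tract was looked for in their start regions because these genes move together. The letters CTTTC, read on the transcribed strand from 20 bases before to 10 after the RefSeq start (GRCm38.p6), occurred in 14 of 58 ribosomal protein genes with a promoter entry (24.1%). They occurred in 340 of the 8194 RefSeq genes that match a tested entry and have a promoter (4.15%) and 1339 of all 27025 (4.95%). The reverse strand held them in 3 of the 58 (5.17%). The matches of Rpl7a and Rpl35 (base -5), Rps27 (-8), Rps15a and Rpl13 (-11), Rpl4 (-17) and Rpl5 (-18) lie wholly before the RefSeq start. They are thus outside the annotated transcript. Those shown were taken from the other matches, which begin at bases 1 to 5. Of the 14, 4 are shown, with the match in capitals, at chr7:141447631-141447660 (plus strand, Rplp2), chr11:114668560-114668589 (plus, Rpl38), chr16:33056462-33056491 (plus, Rpl35a) and chr14:18270977-18271006 (minus, Rpl15).
Rplp2: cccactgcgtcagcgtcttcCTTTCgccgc
Rpl38: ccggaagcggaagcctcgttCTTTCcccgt
Rpl35a: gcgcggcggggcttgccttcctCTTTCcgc
Rpl15: ggattgtgggagaaagccttcttcCTTTCc
The match is a description of these windows and no shown control element. The 4 genes differed between E18 and treated adult cells by 1.95, 2.28, 0.94 and 1.72.

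Translation factors followed in smaller steps. All 45 listed genes were tested, with a median of 0.81. Of these 36 were higher in E18 and 5 lower, beside 41.6% and 28.3% of all genes. Eef1b2, the exchange factor of elongation factor 1A, had the largest excess at 2.65 ± 0.093. The initiation subunits Eif3e (2.51) and Eif4g2 (2.20) came next. The 2 forms of elongation factor 1A were opposite. Eef1a1, the general form, stood at 2588 and 2602 FPKM in E18 and 774 and 770.2 FPKM in treated cells, a difference of 1.75 ± 0.032. Eef1a2, the form of mature neurons and muscle, stood at 53.4 and 49.3 against 369 and 382 FPKM, a difference of -2.85 ± 0.054 (limma adjusted p = 1.43e-07). Eif4a2 and Eif5a were level, with 95% intervals of -0.16 to 0.12 and -0.095 to 0.20.

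RNA processing genes were mostly higher in E18. Of 83 listed genes 82 were tested, with a median of 0.62. In E18 57 were higher and 9 lower, beside 41.6% and 28.3% of all genes. With other scalings the number of lower genes reached 14. Srsf6, an SR splicing protein, differed by 2.38 ± 0.085 and Hnrnpa1, an abundant nuclear RNA-binding protein, by 2.02 ± 0.072. Igf2bp2, an embryonic mRNA-binding protein, stood at 8.03 and 10.9 FPKM in E18 and 0.149 and 0.149 FPKM in treated cells, a difference of 3.17 ± 0.22. The proteins tied to the adult splicing pattern were on the other side, with Mbnl2 at -2.07 ± 0.13, Mbnl1 at -1.17 ± 0.14 and the neuronal splicing regulator Celf4 at -1.30 ± 0.046. Tardbp, which encodes the RNA-binding protein TDP-43, was listed at 0 in all 4 adult libraries and at 88.5 and 103 FPKM in E18. Every cell uses Tardbp, so these zeros can be failed estimates, and no fold is given.

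Chromatin genes also leaned to E18, with 37 of 61 tested genes higher and 8 lower, of 71 listed (median 0.64). The shares of all genes were 41.6% and 28.3%. Under quantile scaling 13 chromatin genes were lower. High-mobility-group proteins, architectural proteins of open chromatin, were among the largest differences, with Hmgb3 at 3.64 ± 0.18, Hmgb2 at 3.01 ± 0.20 and Hmgn2 at 2.60 ± 0.11. The 2 forms of the Polycomb methyltransferase were opposite. Ezh2, the form of dividing and young cells, stood at 15.4 and 16.5 FPKM in E18, 0.828 and 0.331 FPKM in treated and 0.784 and 0.406 FPKM in control adult RGCs, a difference of 3.44 ± 0.23 (limma adjusted p = 2.47e-05). Ezh1 stood at 13.4 and 13.6 against 27.9 and 29.9 FPKM, a difference of -1.04 ± 0.097. The remodelling ATPases showed the same exchange, with Smarca4 (Brg1) higher in E18 (1.31) and Smarca2 (Brm) lower (-1.78). Hdac2 was higher (1.98) and Hdac11 lower (-2.20). H3f3a and H3f3b, which encode the replication-independent histone H3.3, were higher in E18 (1.25 and 1.59) and in treated over control cells (0.86 and 0.41, both lost without 1 library).

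RGCs do not divide, and 12 of 36 listed cell cycle genes were tested. Of these 6 were higher in E18 and 3 lower, at a median of 0.35, beside 41.6% and 28.3% of all genes, so the list did not stand far from the background. Among genes averaging at least 5 FPKM, 1 was lower. The helicase subunits Mcm6 (2.82 ± 0.29) and Mcm7 (2.42 ± 0.27), which load on replication origins, and the inhibitor Cdkn1a (2.80 ± 0.21) were the largest. The proliferation genes Mki67 and Top2a are not analysed here.

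The cholesterol pathway was higher in E18 almost from end to end. All 20 listed enzymes were tested, 17 were higher in E18, 1 was lower and 2 were not called, with a median of 1.55. Of all genes 41.6% were higher and 28.3% lower. Hmgcs1, which makes HMG-CoA at the head of the pathway, stood at 725 and 724 FPKM in E18, 123 and 116 FPKM in treated and 149 and 158 FPKM in control adult RGCs. Its difference was 2.59 ± 0.051 (limma adjusted p = 1.59e-07). Cyp51, the lanosterol demethylase, differed by 2.74 ± 0.091 and Mvd, the last step to isopentenyl diphosphate, by 2.16 ± 0.12. Pmvk (0.35) and Ebp (0.38) were not called.

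The regulators of the pathway did not follow its enzymes. Of 6 regulators and uptake genes, 1 was higher and 3 were lower, beside 41.6% and 28.3% of all genes. Srebf2, the transcription factor of the pathway, differed by 0.29 ± 0.067 (95% interval 0.13 to 0.45), and this call was lost under another scaling. Insig2, which holds SREBP in the endoplasmic reticulum, was lower in E18 (-1.63 ± 0.1). Between treated and control adult cells 1 of 26 pathway genes was higher (Ebp, 0.86) and 6 were lower, beside 3.53% and 6.29% of all genes. Hmgcs1 and Cyp51 were among the lower ones (-0.36 and -0.50), and of these 7 calls that of the joint entry Fdps/Rusc1 held without each library in turn. The letters of a sterol response element, TCACNCCAC, searched on both strands within 250 bases before to 50 after the start, occurred in 1 of 20 pathway genes with a promoter entry (5%) and in 115 of the same 8194 genes (1.4%). That gene was Hmgcs1, at chr13:119690204-119690233 (plus strand, GRCm38.p6).
Hmgcs1: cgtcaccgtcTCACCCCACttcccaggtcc

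Developmental signalling genes gave no common direction, with 12 of 28 tested genes higher in E18 and 8 lower, of 51 listed (median 0.23). Of all genes 41.6% were higher and 28.3% lower, at a median of 0.19, so the list stayed near the background. Kit, a receptor tyrosine kinase, was higher in E18 (2.20 ± 0.24), as were the TGF-beta family ligand Gdf11 (1.73 ± 0.20) and Lin28b, an inhibitor of let-7 processing (1.38 ± 0.27). Ctnnb1, beta-catenin, stood at 226 and 214 FPKM in E18 and 93.5 and 94.9 FPKM in treated cells (1.21 ± 0.051). Many Notch, Wnt and Hedgehog genes of the list are not analysed here.

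Imprinted genes, expressed from 1 parental copy and often active in growth before birth, also divided: 10 of 25 tested genes were higher and 10 lower, of 41 listed (median 0.066). These counts stand beside 41.6% and 28.3% of all genes. The noncoding RNA Meg3 stood at 502 and 502 FPKM in E18 against 67.5 and 64.4 FPKM in treated cells (2.91 ± 0.054). Impact (-3.99 ± 0.078), a regulator of the amino acid response, Nap1l5 (-3.74 ± 0.049) and Grb10 (-3.05 ± 0.16), an adaptor that dampens insulin signals, were lower in E18. Nnat, named above among the largest, and Meg3 were also higher in treated than in control adult cells (0.57 and 0.42), calls that were lost without 1 library.

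Genes linked to axon regeneration in earlier work did not share a direction. Of 42 listed 34 were tested, 15 were higher in E18 and 12 lower, with a median of 0.044, under the 0.19 of all genes. Over all genes the shares were 41.6% and 28.3%. Cntfr, the receptor subunit for ciliary neurotrophic factor, was listed at 0 in all 4 adult libraries and at 49.1 and 55.0 FPKM in E18. Its entry shares coordinates with another locus of the table, so the division of reads between them is uncertain. Neighbouring entries were also at 0 in the adult libraries, so the zeros of Cntfr can be failed estimates. Jun, an injury-induced factor, was higher in E18 (1.43 ± 0.076), and the chaperone Hspb1 was lower (-3.49 ± 0.16). Tsc2, an inhibitor of the mTOR growth pathway, was higher in E18 (1.64 ± 0.12), while the kinase Mtor, with a 95% interval of -0.21 to 0.31, was level. Lifr (-1.28) and Il6st (-0.55), which form the receptor with Cntfr, were lower in E18.

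A strict form of the question is which genes were well above 0 in E18 and listed near or at 0 in treated adult cells. Of the 9981 genes, 33 stood at 10 FPKM or more in both E18 libraries and under 1 FPKM in both adult miR-1247 libraries. In the adult control libraries 23 of the 33 were under 1 FPKM in both. The thresholds fix the direction, so no test is given for the set. The 10 with the highest E18 level were Tes, Tardbp, Dctn3, Ccl27a, Epb41, Igfbpl1, Cntfr, Xist, Draxin and Rcor2. Of the 33, 14 were listed at 0 in both treated libraries, and 6 share coordinates with another locus. Genes that every cell uses are among those at 0, so any of the 14 can be a failed estimate and is not shown to be silent in the adult. Cntfr, Dctn3, Ccl27a and the joint entry Galt/Il11ra1, all at 0, lie together on chromosome 4 and share coordinates.

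Tes, a LIM protein of focal adhesions, stood at 105 and 94.6 FPKM in E18, 0.716 and 0.713 FPKM in treated and 2.01 and 1.12 FPKM in control cells. Igfbpl1, a secreted protein of the insulin-like growth factor binding family, stood at 52.4 and 52.1, 0.643 and 0.966 and 1.32 and 0.754 FPKM in the same order. Draxin, a repulsive guidance protein that binds netrin and Dcc, stood at 33.9 and 37.8, 0.218 and 0.301 and 0.201 and 0.101 FPKM. These 3 genes were thus at a trace level in both adult groups. Rcor2, a corepressor of the REST and LSD1 complex in neural progenitors, stood at 33.2 and 33.2, 0.708 and 0.720 and 3.03 and 1.11 FPKM. Epb41, a membrane skeleton protein, stood at 52.7 and 53.6, 0 and 0 and 0 and 0 FPKM. Dctn3, a dynactin subunit used in every cell, stood at 73.9 and 68.6 FPKM in E18 and at 0 and 0 and 0 and 0 FPKM in the adult groups, and shares coordinates with another locus.

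Lists of mature neuron function leaned to the adult, and many of their genes were also present in E18 cells. Of 50 listed synaptic vesicle and release genes 47 were tested, at a median of -1.10. Of these 31 were lower in E18 and 13 higher, beside 28.3% and 41.6% of all genes. Of 11 genes of the SNARE fusion machinery 10 were lower. Snap25, the SNARE of the plasma membrane, stood at 582 and 557 FPKM in E18, 2579.6 and 2610.2 FPKM in treated and 3014 and 3030.0 FPKM in control cells, a difference of -2.19 ± 0.032 (limma adjusted p = 6.07e-08). Vamp2, its partner on the vesicle, differed by -2.39 ± 0.033 and Nsf, which takes SNAREs apart, by -2.65 ± 0.048. Stx1a was the 1 SNARE gene higher in E18 (1.87 ± 0.10). The active zone genes divided, 5 higher and 4 lower of 11, beside 41.6% and 28.3% of all genes. Erc2 (1.99) and Erc1 (1.80) were on the embryonic side.

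Slc17a6, the vesicular glutamate transporter of RGCs, was level between E18 and treated cells. It stood at 54.7 and 50.4 FPKM in E18 and 54.9 and 54.0 FPKM in treated cells, with a 95% interval of the difference of -0.21 to 0.11. The adult control libraries stood at 124 and 119 FPKM, above both. The treated cells were lower than control cells by a log2 difference of -1.14 ± 0.066 (limma adjusted p = 0.00114). For this gene the difference to E18 was thus present in control cells and not detected in treated ones. Slc17a6 is also 1 of the 22 RGC markers described below, of which 21 were lower in treated than in control cells. The part of the cell mixture in its level was not tested. Sv2c, a vesicle glycoprotein, stood at 19.9 and 17.2, 11.2 and 9.93 and 36.4 and 39.5 FPKM in the order E18, treated, control. It was higher in E18 than in treated cells (0.75 ± 0.12), but turned to -0.49 when the locus of highest level alone was used.

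Ion channels of mature neurons were among the lists with the widest adult excess. Of 65 listed genes 57 were tested, at a median of -1.22. Of these 38 were lower in E18 and 14 higher, beside 28.3% and 41.6% of all genes. Of 32 potassium and HCN channel genes 24 were lower in E18 and 6 higher, at a median of -2.09. Kcnj9, a subunit of G protein-gated potassium channels, stood at 1.97 and 2.49 FPKM in E18 and 118 and 116 FPKM in treated cells (-5.20 ± 0.098, limma adjusted p = 1.43e-07). Kcna1, the Kv1.1 channel of axons, stood at 0.843 and 1.49 against 37.0 and 48.2 FPKM (-4.33 ± 0.19). Kcnab3 (-5.49 ± 0.16) and Kcnab1 (-5.10 ± 0.15), cytoplasmic subunits, had 2 of the largest differences, and both share coordinates with another locus.

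Sodium channels exchanged subtypes. Scn1a (-1.89), Scn2a (-0.997) and Scn8a (-1.22), the pore subunits of mature central neurons, were lower in E18, while Scn3a (0.50) and Scn9a (3.26) were higher. The Scn3a call was lost without 1 library and under another scaling. Scn9a stood at 20.4 and 21.7 FPKM in E18 and 1.61 and 1.04 FPKM in treated cells. Scn3b, an accessory subunit, stood at 107 and 107 against 69.0 and 69.0 FPKM (0.63 ± 0.067) and was higher in E18. Of 17 calcium channel genes 9 were lower and 5 higher, beside 28.3% and 41.6% of all genes. Cacna1a, the P/Q-type pore, was level (95% interval -0.26 to 0.22).

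Transmitter receptors had 22 of 38 tested genes lower in E18 and 10 higher, of 48 listed (median -0.60). The shares of all genes were 28.3% and 41.6%. Under other scalings 4 to 6 receptors were higher. Gabra5, a GABA-A receptor subunit, was higher in E18 (1.52 ± 0.26). Among NMDA receptor subunits, Grin2a, which increases after birth, was lower in E18 (-2.39 ± 0.18), and Grin2b was not called (-0.07). The nicotinic subunit Chrna3 was higher in E18 (1.93 ± 0.11) and Chrnb3 level (95% interval -0.14 to 0.17).

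Of 17 ion pumps and chloride transporters tested 12 were lower in E18 and 1 was higher, beside 28.3% and 41.6% of all genes. The median of the 17 was -1.03. The higher gene was Slc8a2 (0.51), and its call was lost under other scalings. Atp1b1, a beta subunit of the sodium pump, stood at 51.0 and 55.2 FPKM in E18, 1029.6 and 1067 FPKM in treated and 1163 and 1117 FPKM in control cells (-4.28 ± 0.051, limma adjusted p = 5.22e-08). Slc12a5 (KCC2), the chloride extruder that makes GABA inhibitory in mature neurons, stood at 24.6 and 20.5 against 259.5 and 255 FPKM (-3.46 ± 0.084). Slc12a2 (NKCC1), which loads chloride in young neurons, was not called (0.44).

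The axonal cytoskeleton of the adult list did not side with the adult as a whole: 16 of 26 tested genes were higher in E18 and 10 lower, at a median of 0.41. Among all genes the shares were 41.6% and 28.3%. Neurofilaments exchanged. Nefh, the heavy chain, stood at 4.605 and 5.00 FPKM in E18, 60.1 and 59.3 FPKM in treated and 82.3 and 85.8 FPKM in control cells (-3.39 ± 0.081, limma adjusted p = 3.35e-07). Nefl stood at 684 and 684, 309 and 311 and 619 and 627 FPKM, and Nefm at 556 and 546, 148 and 156 and 346 and 338 FPKM. These light and medium chains were thus lowest in the treated cells. Tuba4a, an adult tubulin (-4.09 ± 0.075), and Map1a (-1.77 ± 0.095) were lower in E18, while the kinesins Kif5a (1.09) and Kif1b (1.15) were higher. In the contrast of treated with control cells 18 of the 26 genes were lower and 0 higher, beside 6.29% and 3.53% of all genes. Their median was -0.36, and the calls of Nefl, Nefm, Ina, Sptb and Kif5a held without each library in turn.

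Glycolysis was higher in the adult, with 14 of 18 tested genes lower in E18 and 2 higher (median -0.88). The shares of all genes were 28.3% and 41.6%. The neuronal enolase Eno2 stood at 50.4 and 57.2 against 479 and 485 FPKM (-3.14 ± 0.064). Gapdh, which every cell uses and which has many processed copies, was listed at 0.396 and 0 FPKM in E18 and 14.8 and 8.46 FPKM in treated cells, so its entry can be a failed estimate and no fold is given. Aldoc, an aldolase that glia also express, stood at 9.25 and 9.13 against 509 and 536 FPKM (-5.68 ± 0.052). The phosphofructokinases Pfkp (1.70) and Pfkl (0.53) were the 2 higher in E18. Of 20 listed MHC class I and interferon genes 8 were tested, 5 were lower in E18 and 2 higher, beside 28.3% and 41.6% of all genes. The higher calls came to 1 under 3 other scalings and without E18 replicate 2. B2m, the light chain of MHC class I, stood at 15.5 and 23.8 FPKM in E18, 62.2 and 60.9 FPKM in treated and 23.3 and 19.6 FPKM in control cells. It differed from E18 by -1.63 ± 0.19 and was higher in treated than in control cells by 1.48 ± 0.19 (limma adjusted p = 0.0116), a call lost when 1 library was left out (adjusted p up to 0.0796).

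**Figure D4:**
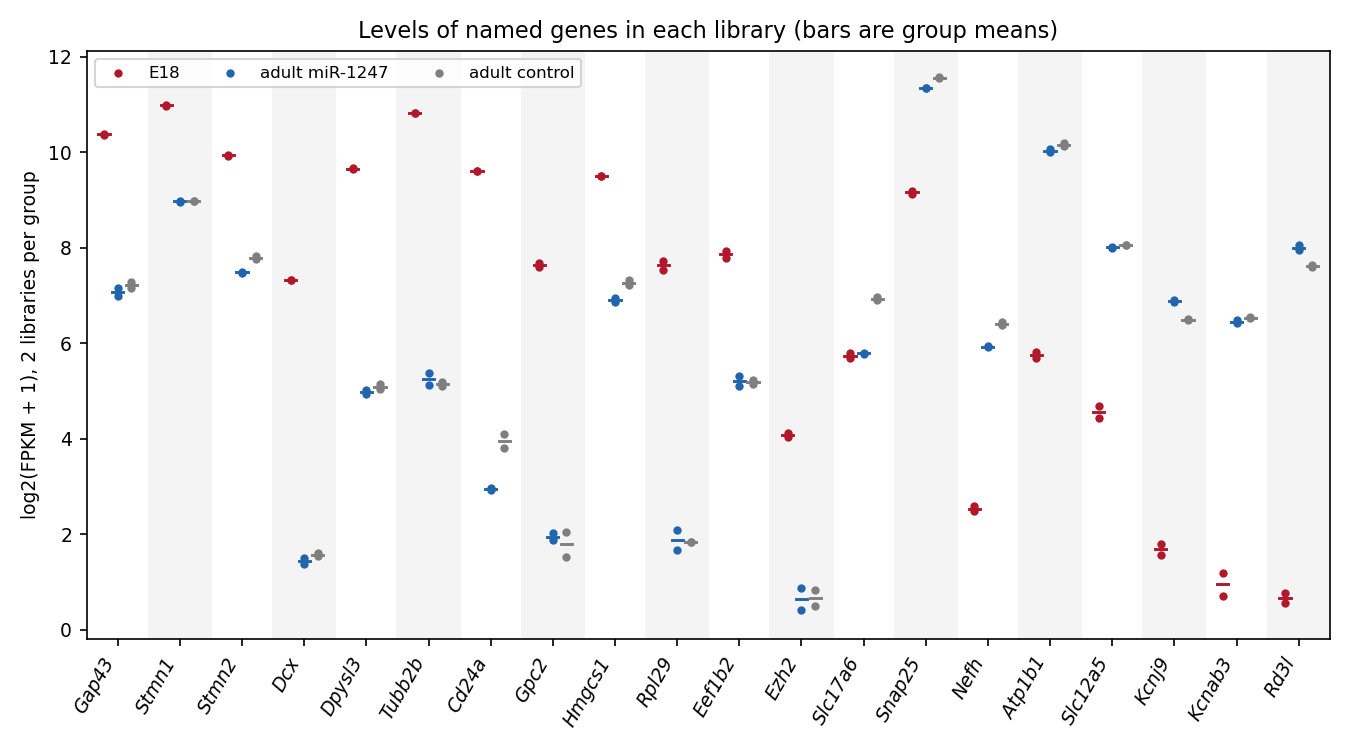
Log2(FPKM + 1) (y axis) of 20 named genes in each of the 6 libraries, with a separate colour for E18, adult miR-1247 and adult control libraries and bars for group means, from embryonic genes on the left to adult genes on the right. The 4 adult points lie together and apart from the 2 E18 points for nearly all of them, while Slc17a6 has E18 and treated points together at 54.7 and 50.4 and 54.9 and 54.0 FPKM.

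In the mirror set, 35 genes stood at 10 FPKM or more in both treated libraries and under 1 FPKM in both E18 libraries. Of these, 33 were at 10 FPKM or more in both control libraries. The 10 of highest treated level were Rd3l, Rasgrf1, Mmp9, Cpne6, Prdm8, Klf9, Arhgap24, Npy, Unc80 and Thrsp. Rd3l, a relative of the photoreceptor guanylate cyclase regulator Rd3, stood at 0.469 and 0.713 FPKM in E18, 265 and 245 FPKM in treated and 198 and 193 FPKM in control cells, and its difference of -7.33 ± 0.095 was the largest on the adult side among genes above 0 in every library. Rasgrf1, a calcium-dependent Ras activator of mature neurons, stood at 0.264 and 0.264, 115 and 115 and 120.4 and 113 FPKM in the same order. Mmp9, a matrix protease, stood at 0.382 and 0.134, 63.3 and 61.5 and 69.4 and 64.9 FPKM. These 3 genes were high in both adult groups. For Rd3l the difference of treated minus control cells was 0.38 ± 0.095, which did not pass the test (limma adjusted p = 0.0541).

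Markers of other retinal cells moved with age too, and stand beside the adult lists for that reason. Of 14 amacrine cell markers 6 were tested. Of these 4 were lower in E18, Gad2, Slc6a9 and Npy among them, and 0 were higher, beside 28.3% and 41.6% of all genes. The summed FPKM of the 6 markers was 927 and 957 in E18, 1593 and 1623 in treated and 1576 and 1616 in control libraries. Gad2, which makes GABA, stood at 0.682 and 1.03 FPKM in E18, 104 and 110.0 FPKM in treated and 81.2 and 82.5 FPKM in control libraries. Amacrine cells also use synaptic, channel and receptor genes, and the part of such cells in the adult excess of those lists was not tested.

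Of 13 markers of Müller glia and astrocytes 6 were tested, 5 were lower in E18 (Glul, Apoe, Dkk3, Aldoc and Clu) and Vim was higher (4.15 ± 0.27). Their summed FPKM was 182 and 181 in E18, 2017 and 1908 in treated and 1575 and 1229.5 in control libraries. Glul varied within the control group, at 463 and 122 FPKM. The part of glial RNA in the adult excess of glycolysis was not tested.

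Of the other marker lists few genes were tested. Rom1 and Reep6 of 14 rod markers were lower in E18 (-1.92 and -1.70), as were the oligodendrocyte genes Mbp (-1.81) and Cnp (-0.64, a call lost without 1 library). Of 4 tested bipolar cell markers Prkca (-1.62) and Car8 (-1.93) were lower in E18, Gng13 was not called (-0.33), and Isl1 is also an RGC gene. Calb1, a horizontal cell marker, was lower in E18 (-1.34), and the lens gene Crybb3 too (-2.46, lost without 1 library). The fibroblast gene Col6a1 was higher (0.51), a call lost when a library was left out or under another scaling. Of 13 retinal progenitor markers Dapl1 was at 14.2 and 14.2 FPKM in E18 but listed at 0 in each of the 4 adult ones, and Hes6 was higher in E18 (0.79 ± 0.10). Marker genes of cones, microglia, endothelial cells, erythroid cells and pigment epithelium are not analysed here. The progenitor values stand beside the E18 excess of chromatin and cell cycle genes, and their part in it was not tested.

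The listed RGC markers stood above 0 in every library, at levels that differed between groups. All 22 were tested, at a median of 1.64. Of these 14 were higher in E18 and 6 lower, beside 41.6% and 28.3% of all genes. Rbpms, a pan-RGC RNA-binding protein, stood at 295 and 289.9 FPKM in E18, 58.4 and 48.1 FPKM in treated and 102 and 111 FPKM in control libraries. Thy1, the antigen used for purification, stood at 358 and 346, 643 and 618 and 863 and 847 FPKM, and Sncg, another RGC gene, at 1436 and 1451, 538 and 527 and 812 and 761 FPKM. Treated cells were lower than control cells in 21 of the 22 markers and higher in 0, beside 6.29% and 3.53% of all genes. The median was -0.72, and 15 of these calls held without each library in turn. The summed FPKM of the RGC markers was 6177 and 6169 in E18, 2586 and 2552 in treated and 4254 and 4188 in control libraries, beside glial marker sums of 2017 and 1908 in the treated libraries. The RGC determination factors and neurofilaments described above are in part the same genes. Of the 6 tested amacrine markers 2 were called higher in treated than in control cells and 1 lower, and Gad2 differed by 0.38 ± 0.11, which did not pass the test (limma adjusted p = 0.0839). The part of the cell mixture in the lower RGC genes was not tested.

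Genes level between E18 and treated cells were counted where the whole 95% interval of the difference lay within 1.5-fold. There were 1872 such genes (18.8%). Among those described, Pax6, Fez1, Slc17a6, Eif4a2, Eif5a, Mtor, Cacna1a, Chrnb3 and Efnb3 were of this kind. The eIF4A isoforms show how close relatives can part, since Eif4a1 was higher in E18 (1.83 ± 0.049).

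The number of genes called against E18 was close for both adult groups. The contrast of E18 with adult control cells gave 4012 higher (40.2%) and 2981 lower genes (29.9%), 6993 (70.1%) in all, against 4149 and 2828 with treated cells. The 2 contrasts share the E18 libraries, so their values are given side by side only. The growth cone list had a median of 1.60 from control and 1.59 from treated cells, and the ribosomal proteins 1.89 and 1.84. For cholesterol synthesis the medians were 0.97 and 1.19, for ion channels -1.53 and -1.22, and for glycolysis -1.09 and -0.88. The RGC determination factors stood at 1.08 from control and 1.97 from treated cells, and the mature axon cytoskeleton at 0.098 and 0.41. The widest gap among the 20 lists was that of the 8 tested MHC class I and interferon genes, at -0.45 from control and -1.23 from treated cells.

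**Figure D5:**
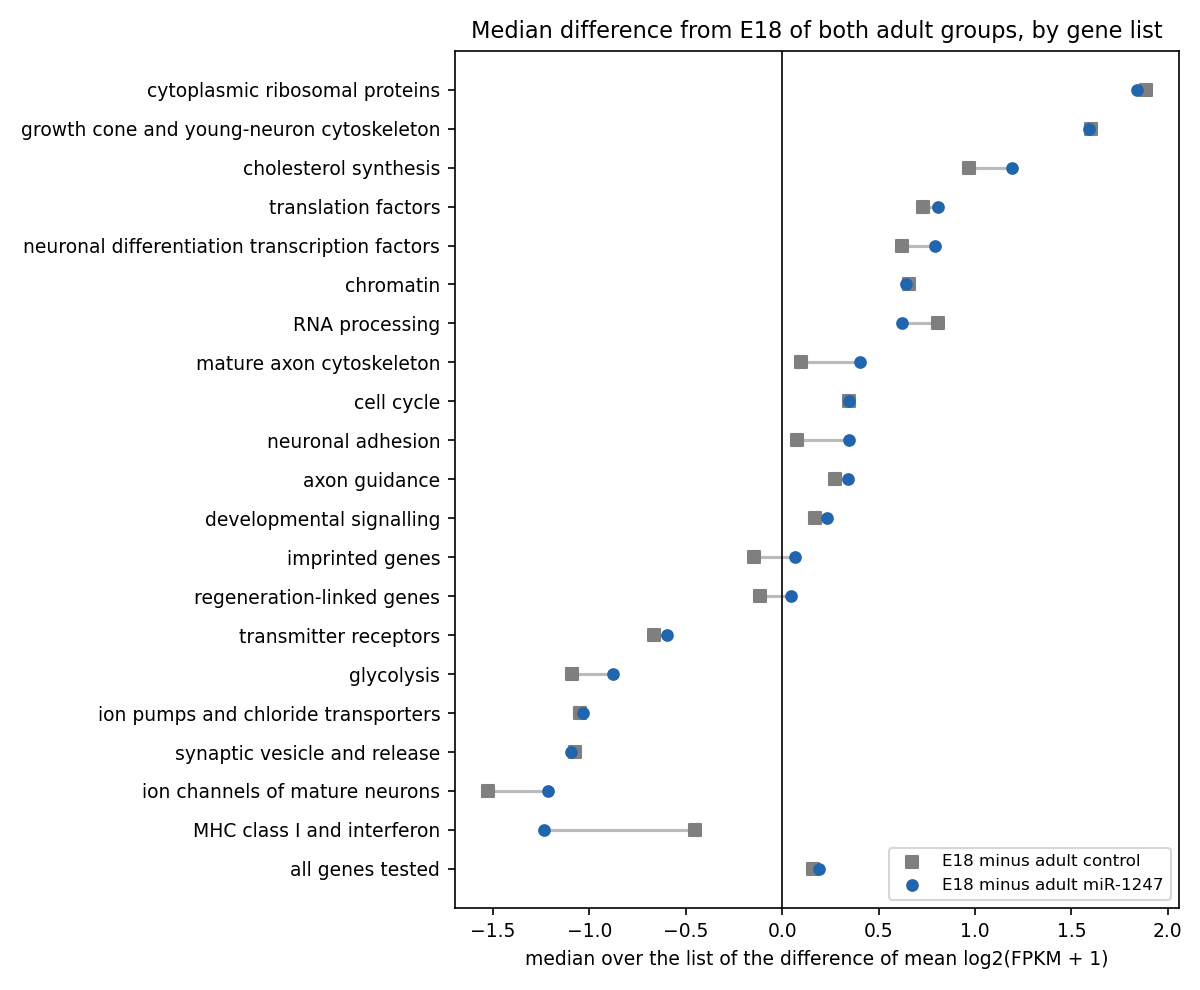
Median difference to E18 (x axis, log2 of FPKM + 1) of each of the 20 gene lists and of all genes, with squares for E18 minus adult control and circles for E18 minus adult miR-1247. The markers lie close together for the growth cone (1.60 and 1.59), part for the mature axon cytoskeleton (0.098 and 0.41) and ion channels (-1.53 and -1.22), and lie farthest apart for MHC class I and interferon (-0.45 and -1.23).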

How the data were processed

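Poly-A RNA was measured in 6 libraries, 2 in each of 3 groups (E18, adult miR-1247, adult control RGCs). Per the submitters' processing notes, the authors aligned reads to mm39 with HISAT2 and derived FPKM in Cufflinks and Cuffdiff, with versions not given in the sources used here. The deposited log2 columns are the authors' group ratios (treated to control, and control to E18) and were used as a check only: ratios recomputed from the deposited FPKM lay within 0.00152 and 0.00206 of them. The deposited FPKM table has 11104 entries for 10361 gene names and 10889 loci, and 0 columns of unmapped samples.

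From each FPKM value 1e-05, which the file adds to every entry, was subtracted. The 10534 entries with a mean of at least 1 FPKM were kept, entries with the same coordinates and locus were taken once under a joint name (183 genes), and loci of 1 name were added up (331 genes). Of the 9981 genes, 1992 share coordinates with another entry, between which reads may be divided differently, and 182 are listed at 0 in some library. The kit as named does not keep strand.

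Values of log2(FPKM + 1), that is with pseudocount 1, of all 6 libraries were fitted with 3 group means in limma 3.58.1 (R 4.3.3), where gene variances were moderated towards a trend with level (median 6.55 degrees of freedom in all). Tests were two-sided, Benjamini-Hochberg adjusted over all genes and called at 0.05, and intervals are 95%. The procedure was tested on simulated data. Other steps used pandas 2.3.3, NumPy 2.4.6 and Matplotlib 3.10.9 under Python 3.11.15. Depth is unknown, so no counting interval is given, and n = 2 limits precision.

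The 20 gene lists and 15 marker lists were chosen with earlier results of these data known, and so was the comparison. Named genes were the 15 largest differences a direction, the 10 highest of each set defined by 10 and 1 FPKM, and in each list the 5 largest called differences a direction, the highest levels, the narrowest intervals within 1.5-fold and genes called between treated and control cells, with all measured markers. Another 27 genes, mostly relatives of a named gene, were named after their values were seen. Alternatives were another pseudocount, filter, treatment of loci, scaling, variance model, set of libraries and a replicate block. The same number in 2 groups did not pair libraries (correlations of deviations -0.016, -0.003 and 0). Sequences came from RefSeq (GRCm38.p6) and GENCODE vM39 (GRCm39). Values of some single genes in the lists are not reported here, while the list counts and medians include them.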

Additional observations from a re-analysis of the deposited data

How the results depend on the processing

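With 4149 higher and 2828 lower genes, the E18 contrast kept its counts within 1.5 times under every alternative run, from 5933 calls in all without E18 replicate 2 to 7044 with pseudocount 5. Its split moved with the scaling, as given above, while that between treated and control cells moved from 352 higher and 628 lower to 136 and 766 with equal totals and to 463 and 522 with median ratio scaling. This second contrast fell to 341 calls (106 higher, 235 lower) without a variance trend and to 343 (123 and 220) with only the 4 libraries compared. With a replicate block it gave 577 calls (204 and 373), and the E18 contrast 4098 higher and 2757 lower; the numbers did not pair the libraries, and the cause was not tested. Without 1 library it gave 118 to 238 calls, 34 to 78 higher and 84 to 162 lower; fewer libraries entered those fits, and a group left with 1 library is assumed to vary like the others. Genes level between E18 and treated cells rose from 1872 to 3319 with pseudocount 5, which compresses differences of low genes. In the list counts, lower RNA processing genes came to 14 with median ratio scaling and without mitochondrial genes, lower chromatin genes to 13 with quantile scaling, and lower cell cycle genes to 1 at a mean of at least 5 FPKM. With median ratio, quantile and no mitochondrial scaling, higher receptors came to 4, 6 and 5, higher pumps to 0 and higher MHC genes to 1 in each. Without 1 library the ranges were 0 to 1 higher pumps, 5 to 7 lower signalling genes, 2 to 4 lower cholesterol genes, 6 to 10 higher receptors and 1 to 2 higher MHC genes. Values that turned were those of Copg2 (0.73) and Sv2c (-0.49) against E18 and Msi1 (-0.040) against control with the highest locus only; Basp1 (-0.028), Chd3 (-0.012), Gnas (-0.034) and Pfn2 (-0.020) with median ratio scaling; Basp1 (-0.15) and Gnas (-0.30) with quantile scaling; and Basp1 (-0.0005) and Gnas (-0.0062) without mitochondrial genes. The cause was not tested.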
